A study of Homo sapiens with 15 samples.

Results

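RANBP3L, UNC5B and ATP13A4 were chosen by their array levels, which were higher with MPA than with PROG in ZR-75-1 cells, an estrogen receptor-positive human breast cancer line. They are 3 of 14361 named genes, each measured by 1 of the 14841 probe sets that are paired here with a gene symbol, in a table of 34878. The cells received 10 nM of MPA (medroxyprogesterone acetate), PROG (progesterone), DHT (dihydrotestosterone) or DEX (dexamethasone), or vehicle (0.1% ethanol, a group the labels also call untreated), for 6 h. These full names are the usual reading of the abbreviations. Every group had 3 expression arrays, all cells were in ordinary serum-containing medium, and a removal of steroids from the serum is not mentioned in the labels. Whether the 3 arrays of a group stand for separate cultures is not stated, so p-values here rest on a spread between arrays that could be technical only.

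The 4 compounds act through nuclear steroid receptors, which bind DNA when a ligand is present and change transcription of nearby genes. MPA differs from progesterone by an added methyl and an added acetoxy group, and it is known to bind the androgen and glucocorticoid receptors as well as the progesterone receptor. RANBP3L is a relative of RANBP3, a cofactor of nuclear export that binds the GTPase RAN, and RANBP3L is known as an export factor for the SMAD proteins of BMP signalling. UNC5B is a receptor for netrins, known from axon guidance and blood vessel growth, and belongs to the dependence receptors, which can favour cell death when their ligand is absent. ATP13A4 is a membrane transport ATPase of a family in which ATP13A2 and ATP13A3 are known to move polyamines.

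Luminal markers were high on these arrays, with KRT18 at 12.05, GATA3 at 10.15 and ESR1 at 8.05 in vehicle (deposited log2 levels, means of 3 arrays), and 11 of 12 measured luminal markers were above a level of 6. The exception was KRT8, at 5.72 in vehicle. All 4 measured basal and all 3 measured fibroblast markers were below 6. The highest of them was the basal marker OXTR, at 5.36 in vehicle, close to KRT8 and above the array medians. Of the 4 measured markers of endothelium or blood, CD68 was above 6, while the endothelial genes VWF (3.20 in vehicle) and KDR (3.00) were under the array medians of 3.69 to 3.73. Arrays of 1 group correlated with r of 0.997 to 0.998 over all probe sets.

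A promoter sequence was at hand for 2 of the 3 genes, RANBP3L and ATP13A4. They are shown because the study's compounds act on DNA-bound receptors, and because both genes were highest with MPA. Each is the 250 bases before the annotated start in RefSeq (GRCh38.p14), written 5′ to 3′ on the gene's strand. RANBP3L lies on the minus strand, with this window at chr5:36301903-36302152, and ATP13A4 on the minus strand with its window at chr3:193554896-193555145. Capitals mark the TATAAA match described after the sequences.
RANBP3L: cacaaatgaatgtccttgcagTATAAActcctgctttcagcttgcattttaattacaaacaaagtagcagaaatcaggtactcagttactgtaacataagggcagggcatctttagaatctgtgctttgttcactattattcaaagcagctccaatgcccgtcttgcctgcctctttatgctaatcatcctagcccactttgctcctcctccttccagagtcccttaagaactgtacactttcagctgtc
ATP13A4: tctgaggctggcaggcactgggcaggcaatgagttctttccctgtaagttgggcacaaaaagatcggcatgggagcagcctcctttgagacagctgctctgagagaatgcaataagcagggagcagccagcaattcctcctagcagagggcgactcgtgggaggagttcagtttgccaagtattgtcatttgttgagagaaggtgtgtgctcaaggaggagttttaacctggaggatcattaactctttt
Both strands were searched for the steroid receptor half-site AGAACA, for the full palindromic element made of 2 such half-sites 3 bases apart, for the forkhead motif TGTTTAC, for the GATA motif AGATAA and for TATAAA. The single match was TATAAA in the RANBP3L window, starting 229 bases before the annotated start. Of 35116 promoter windows of this length, 12.4% hold the half-site, 0.00285% the full element, 2.98% the forkhead motif, 9.17% the GATA motif and 10.7% TATAAA. The windows are 42.4% (RANBP3L) and 50.4% (ATP13A4) G and C, against a median of 58.0% over all windows. A full element contains a half-site, so these shares overlap. With shares this low, a lack of matches in these windows of 250 bases says nothing about receptor binding at the genes.

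Levels are the deposited log2 values throughout, and changes are log2 differences ± the standard error of a limma fit over all 15 arrays. MPA and PROG arrays chose the genes, so for the 3 genes every difference that uses them is given as a description with no test. For the 3 genes, tests are given for DHT against vehicle, DEX against vehicle and DHT against DEX, with Benjamini-Hochberg adjustment over all named probe sets and a threshold of 0.05. For other genes all contrasts are tested.

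RANBP3L had the largest MPA change of the 3 genes. Its levels were 3.47, 3.53 and 3.59 in vehicle, and 5.88, 6.05 and 5.74 with MPA. They were 4.58, 4.59 and 4.25 with PROG, 4.74, 4.94 and 4.68 with DHT, and 3.94, 3.90 and 3.84 with DEX. The 5 groups lay in the order MPA, DHT, PROG, DEX, vehicle, with no overlap between neighbours in that order. The narrowest gap was 0.09, between the lowest DHT and the highest PROG array, and the widest was 0.80, between MPA and DHT. Over all named probe sets, arrays were apart in the same direction for 8.77% between MPA and DHT, 5.49% between DHT and PROG, 6.76% between PROG and DEX and 9.06% between DEX and vehicle. The vehicle level lay under the array medians, where a level cannot be told from background with the values at hand. Each fold over vehicle is therefore an estimate that may be too low.

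With MPA, RANBP3L was an estimated 5.13-fold over vehicle (2.36 ± 0.097, 95% interval 2.15 to 2.57), the highest measured change of the 14841 probe sets. In these bulk samples, more cells with the RNA and more RNA per cell cannot be told apart. With PROG it was an estimated 1.92-fold over vehicle (0.94 ± 0.097, interval 0.74 to 1.15). MPA exceeded PROG by 1.42 ± 0.097, or 2.67-fold, exceeded DHT by 1.10 ± 0.097 and exceeded DEX by 2.00 ± 0.097.

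With DHT, RANBP3L rose by 1.26 ± 0.097, or an estimated 2.39-fold (interval 1.05 to 1.46, limma adjusted p = 1.18e-05). All 3 DHT arrays lay above all 3 vehicle arrays. Its change was the third highest measured with that compound, a rank that shares the limit of the vehicle level. Over all named probe sets, 0.775% were called higher with DHT, and the DHT arrays were all above the vehicle arrays for 7.05%. The difference of 0.36 ± 0.097 with DEX did not pass (limma adjusted p = 0.121), although the 3 DEX arrays were all above the vehicle arrays. The level with DHT was above that with DEX by 0.89 ± 0.097 (limma adjusted p = 3.17e-04), in a comparison in which 0.256% of probe sets were called higher with DHT. RANBP3L was the 1 gene of the 3 called in any of the tested comparisons.

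UNC5B was clearly above the array medians in every group. Its levels were 6.46, 6.44 and 6.46 in vehicle, 8.20, 8.16 and 8.12 with MPA, and 7.18, 7.57 and 7.25 with PROG. They were 6.63, 6.77 and 6.71 with DHT and 6.59, 6.44 and 6.49 with DEX. The order was MPA, PROG, DHT, DEX, vehicle, and in it DEX and vehicle overlapped. Neighbours above them were apart, as MPA was above PROG for 5.87%, PROG above DHT for 7.32% and DHT above DEX for 5.17% of named probe sets. The PROG arrays were the most spread of this gene (SD 0.208, n = 3), with PROG 2 the highest of them, and MPA lay 0.55 above even that array.

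With MPA, UNC5B was 3.26-fold over vehicle (1.71 ± 0.080, interval 1.54 to 1.88), and with PROG 1.84-fold (0.88 ± 0.080). MPA exceeded PROG by 0.83 ± 0.080, or 1.77-fold, and exceeded DHT by 1.46 ± 0.080. For UNC5B the level with PROG lay above that with DHT by 0.63 ± 0.080, whereas for RANBP3L it lay below by a log2 difference of -0.31 ± 0.097 (-0.20 without PROG 3). The opposite order of PROG and DHT in these 2 genes was not tested.

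In the tested comparisons UNC5B did not pass. It differed by 0.25 ± 0.080 with DHT (limma adjusted p = 0.241, interval 0.08 to 0.42), with all 3 DHT arrays above vehicle. The difference with DEX was 0.05 ± 0.080 (limma adjusted p = 0.875, interval -0.12 to 0.23), and that between DHT and DEX 0.20 ± 0.080 (limma adjusted p = 0.438). The interval allows a difference of up to 0.42 with DHT, beside 1.71 with MPA.

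ATP13A4 was apart from vehicle in 1 group, MPA. Its levels were 5.23, 5.27 and 5.21 in vehicle, 6.14, 6.33 and 6.23 with MPA, and 5.31, 5.45 and 5.14 with PROG. They were 5.21, 5.46 and 5.24 with DHT and 5.36, 5.09 and 5.11 with DEX. The 12 arrays without MPA ran from 5.09 to 5.46 and their 4 groups overlapped. The lowest MPA array was 0.68 above the highest of those 12. Over all named probe sets, the MPA arrays were all above the 12 other arrays for 1.75%. The share apart between MPA and vehicle alone was not counted, so nothing is read from that separation by itself.

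With MPA, ATP13A4 was 2.00-fold over vehicle (1.00 ± 0.091, interval 0.80 to 1.19), and it exceeded PROG by 0.93 ± 0.091, or 1.91-fold. The difference between PROG and vehicle was 0.06 ± 0.091 (interval -0.13 to 0.26). DHT differed from vehicle by 0.07 ± 0.091 (limma adjusted p = 0.877, interval -0.13 to 0.26), DEX by -0.05 ± 0.091 (limma adjusted p = 0.903, interval -0.25 to 0.15) and DHT from DEX by 0.12 ± 0.091 (limma adjusted p = 0.752). None of the 3 passed in limma's fit. The intervals allow a difference of up to 0.26 with DHT, beside 1.00 with MPA.

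**Figure D1:**
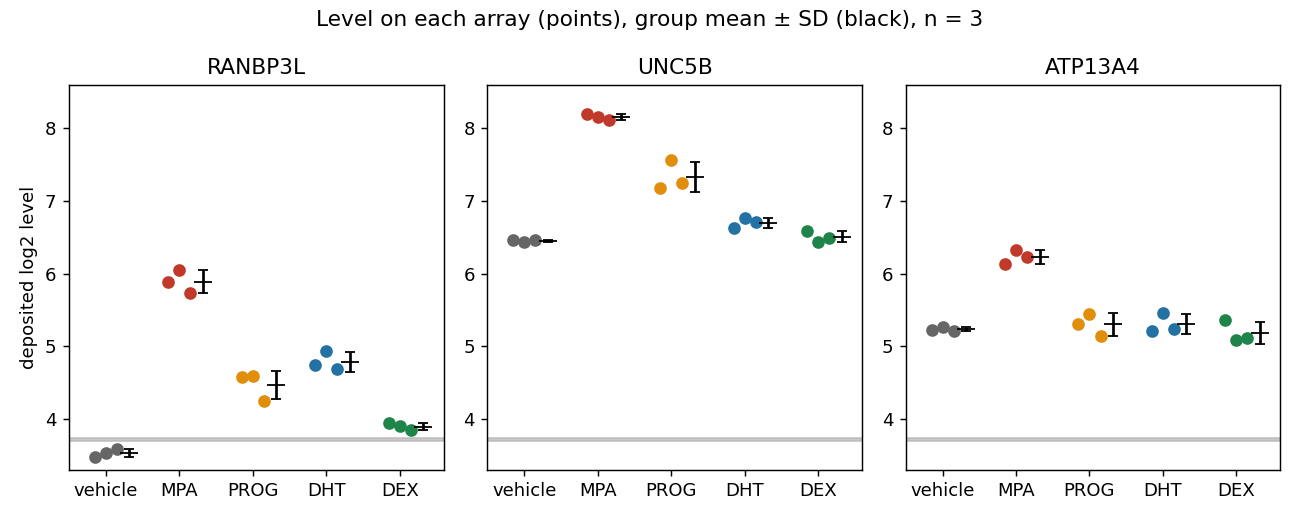
Deposited log2 level (vertical axis) of RANBP3L, UNC5B and ATP13A4 on each of the 15 arrays (points), by group, with the group mean ± SD in black (n = 3) and the range of array medians as a grey band. RANBP3L in vehicle lies under the band, and in each panel the 3 MPA arrays lie above all other arrays.

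The share of the MPA response that another compound reached differed between the genes. On the log2 scale the PROG change was 40.0% of the MPA change for RANBP3L, 51.6% for UNC5B and 6.4% for ATP13A4. The DHT change was 53.2%, 14.6% and 6.7% of it in the same order, and the DEX change 15.4%, 3.1% and -5.0%. Since the vehicle level of RANBP3L may be background, its shares are open to that limit. Over the 15 arrays the 3 genes correlated pairwise with r of 0.873 to 0.890, as a description, since the genes were chosen for a high MPA level and arrays of 1 group share their treatment.

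**Figure D2:**
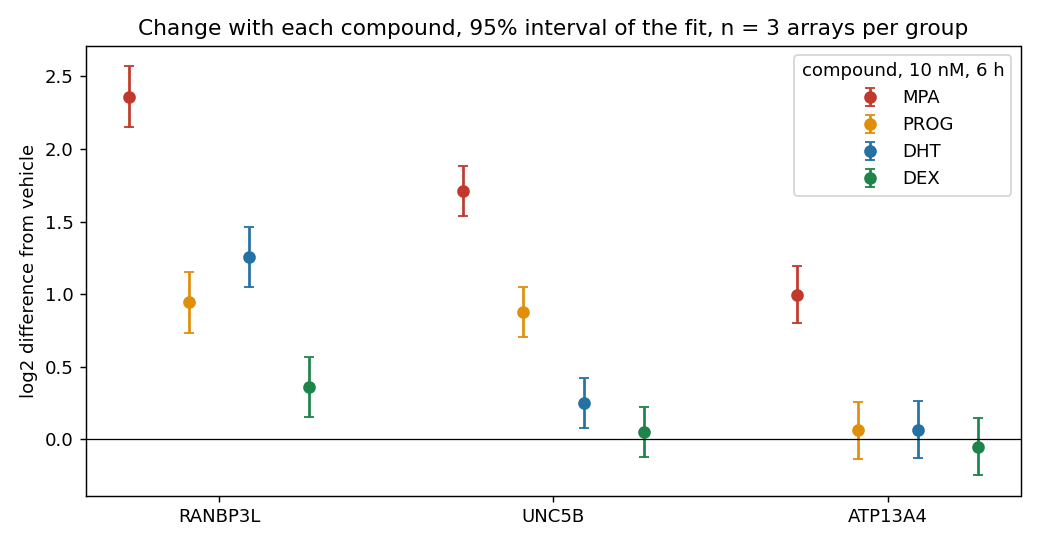
Log2 difference from vehicle (vertical axis) with each compound for the 3 genes, with the 95% interval of the fit, n = 3 arrays per group. The interval lies above 0 with every compound for RANBP3L, with MPA, PROG and DHT for UNC5B, and with MPA for ATP13A4. These intervals are not adjusted, and RANBP3L with DEX and UNC5B with DHT did not pass the adjusted threshold.

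By MPA minus PROG, RANBP3L ranked 1, ATP13A4 ranked 3 and UNC5B ranked 4 of the 14841 probe sets. The choice used no stated threshold. THRSP, a regulator of fat synthesis, ranked 2 with a difference of 1.14, and C1orf116, known as an androgen-regulated gene, ranked 5 with 0.75, against 0.83 for UNC5B. For THRSP the changes from vehicle were 1.03 with MPA, -0.11 with PROG and 0.84 with DHT, and for C1orf116 they were 2.35, 1.59 and 3.48. ATP13A4 and THRSP thus had like changes with MPA and with PROG, and differed with DHT. In that contrast 0.290% of named probe sets were called in either direction, a share from which nothing is read here because the contrast chose the genes. All 3 MPA arrays were above the 12 others for 259 probe sets, or 1.75% of those named. They were above by at least 0.5 for 3 of them, which are RANBP3L, ATP13A4 and UNC5B. Nothing is read from this count either, because the MPA arrays chose the genes. The cut of 0.5 lies between the gaps of UNC5B (0.55) and of the next gene, TIPARP (0.40).

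**Figure D3:**
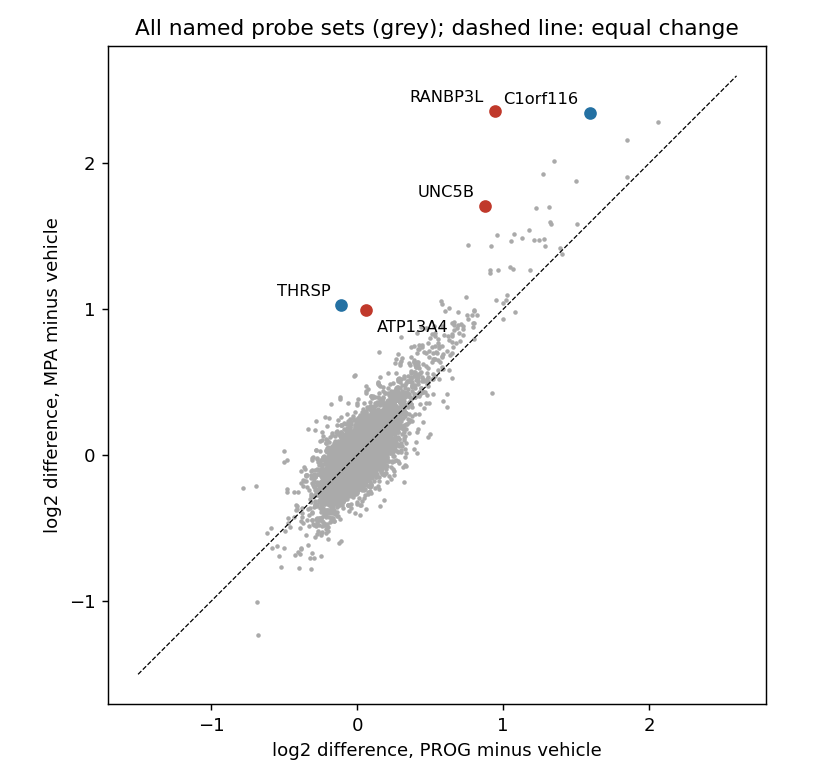
Log2 difference from vehicle with PROG (horizontal axis) and with MPA (vertical axis) for all 14841 named probe sets (grey), with the 3 genes in red, THRSP and C1orf116 in blue and the line of equal change dashed. The 3 genes lie above the line by 0.83 to 1.42.

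The genes most like each member were taken by Pearson's r over the 15 arrays, among the 348 probe sets whose group means span at least 0.5. These r values are descriptions, since arrays of 1 group share their treatment. Genes picked by r with a member tend to share its order of compounds through that choice, so nothing is read from a shared order. Nearest to RANBP3L were PWWP3B, a PWWP domain gene (r = 0.964), TMCC3, a coiled-coil membrane protein (0.958), CPEB4, which binds polyadenylation elements of mRNA (0.937), PRR15 (0.935) and EAF2, a factor of transcript elongation (0.933). The group means of PWWP3B and TMCC3 ran in the RANBP3L order of compounds, though DHT and PROG arrays overlapped in both. PWWP3B changed by 1.44 with MPA, 0.88 with DHT, 0.76 with PROG and 0.37 with DEX. In CPEB4 and EAF2 the change with PROG (0.45 and 1.05) was instead above that with DHT (0.33 and 0.95), and PRR15 was nearly level (0.55 and 0.56). None of these orders was tested.

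Nearest to UNC5B were LRIG1, a membrane inhibitor of growth factor receptors (r = 0.979), TIPARP, an ADP-ribosyltransferase (0.976), SGPP2, a phosphatase of sphingosine phosphate (0.976), the actin-linked PDLIM1 (0.971) and GREB1L (0.968), a relative of the estrogen-response gene GREB1. The group means of each of these 5 ran in the order MPA, PROG, DHT, DEX, as those of UNC5B did, an order favoured by the way they were picked. DHT and DEX arrays overlapped for TIPARP, SGPP2, PDLIM1 and GREB1L. SGPP2 changed by 1.93 with MPA, 1.27 with PROG and 0.31 with DHT, and TIPARP by 1.06, 0.57 and 0.17.

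For ATP13A4 the nearest genes were less close. They were UNC5B (r = 0.890), SH3BP5 (0.886), TMCC3 (0.876), RANBP3L (0.873) and STEAP4, a metal reductase (0.872). SH3BP5 changed by 0.50 with MPA and 0.15 with PROG, and STEAP4 by 0.81 and 0.30. Which genes were nearest depended on the measure. With r over the 5 group means, 2 of the 5 genes were shared for RANBP3L, 2 for UNC5B and 1 for ATP13A4.

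**Figure D4:**
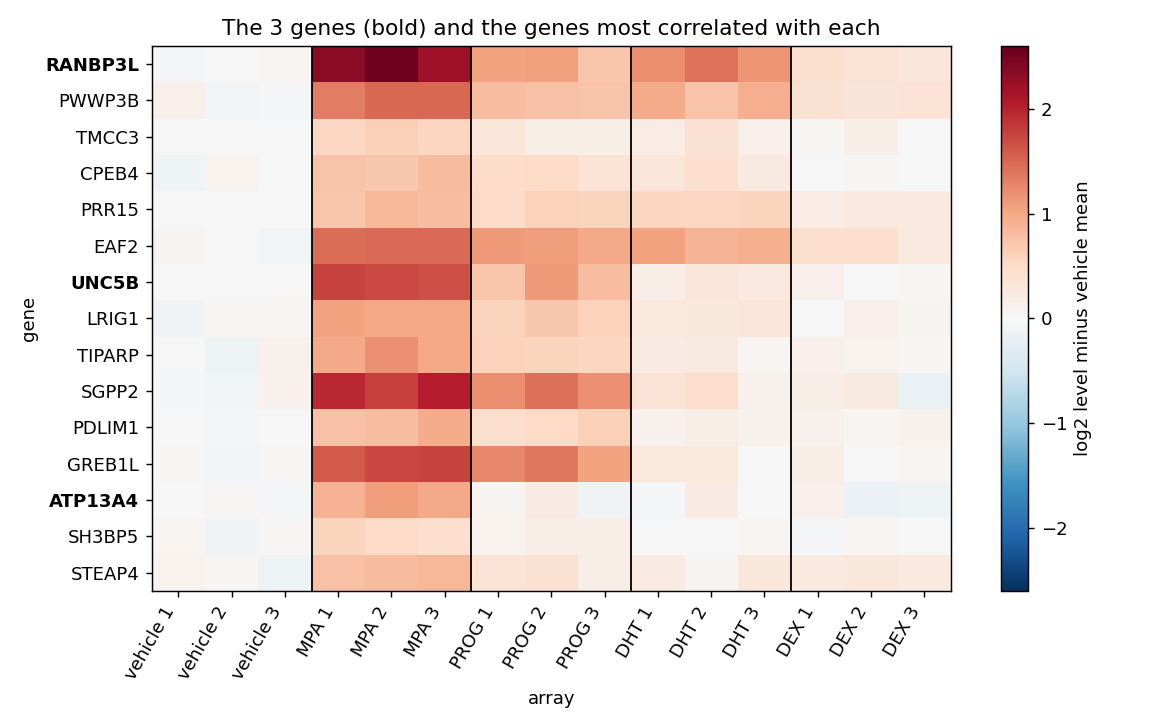
Log2 level minus the vehicle mean (colour) on each of the 15 arrays (columns) for the 3 genes (bold) and, under each, the genes most correlated with it, leaving out repeats. With DHT the RANBP3L group changed by 0.24 (TMCC3) to 1.26 (RANBP3L), and the UNC5B group by 0.13 (PDLIM1) to 0.31 (SGPP2), so the ranges overlap. ATP13A4 itself shows colour mainly with MPA.

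The genes that lie beside the members were looked at next. Of the 18 nearest measured protein-coding genes, 3 on each side of each member, 0 were called higher with MPA and 1 lower in limma's fit (3 at an unadjusted p under 0.05), where 5.93% of all 14841 named probe sets were called. Of the 18, 6 were under the array medians in all groups, where no change can be read, which leaves 12. The 1 call was MB21D2, in the third place beside ATP13A4, which fell by 0.49 ± 0.082 with MPA (limma adjusted p = 0.00147) and stood at -0.20 ± 0.082 with PROG (limma adjusted p = 0.332). With PROG, DHT and DEX, 0 of the 18 were called, with 2, 0 and 0 at an unadjusted p under 0.05. ATP13A5, the next gene to ATP13A4 and its paralogue, stood at -0.04 ± 0.106 with MPA (limma adjusted p = 0.892). NADK2 and NIPBL beside RANBP3L stood at 0.13 and 0.00, and PCBD1 and CDH23 beside UNC5B at 0.01 and -0.03; CDH23 is 1 of the 6. The antisense gene UNC5B-AS1 was below the array medians in all groups (3.21 in vehicle, 3.16 with MPA), so no change can be read for it.

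**Figure D5:**
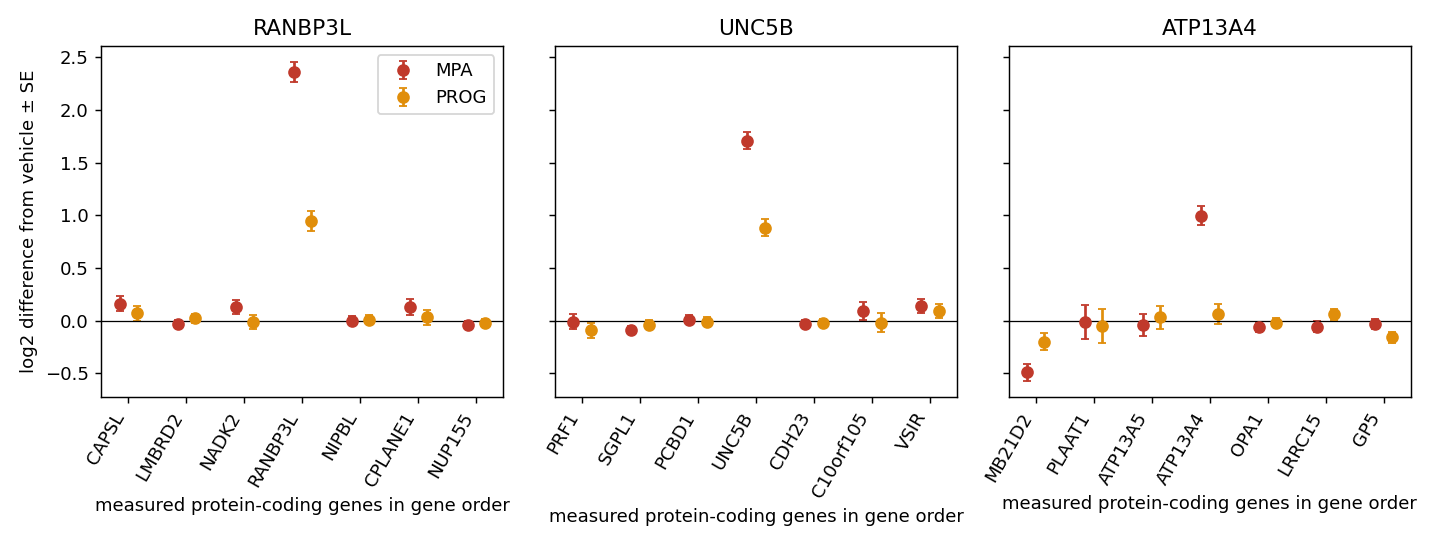
Log2 difference from vehicle ± SE with MPA (red) and PROG (orange) for each of the 3 genes and the 3 nearest measured protein-coding genes on each side, in gene order. The neighbours lie between -0.49 and 0.16 with MPA.

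The other genes of the members' pathways were described from 6 lists. Over 102 measured list genes that are no members, 4 were higher and 9 lower with MPA, or 12.7%, beside 5.93% of all named probe sets. Of the 102, 20 were under the array medians in all groups. Of the 14841 named probe sets, 9557 had a mean above the median of all probe set means. Each list gene also used its brightest probe set, so the shares are not from like sets and no excess is read from them. With PROG 0 list genes were higher and 5 lower (4.90%, beside 2.82%), and with DHT 0 higher and 3 lower (2.94%, beside 0.889%). With DEX limma's fit called 0 (11 at an unadjusted p under 0.05), beside 1.11% of all. MPA against PROG gave 1 call (0.980%, beside 0.290%), and DHT against DEX 0 in limma's fit (9 at an unadjusted p under 0.05), beside 0.654%. With only the 2 groups compared in the fit, which leaves fewer arrays, the calls of DAPK1 with PROG, BAMBI and ESR1 with DHT, BMP4 between MPA and PROG and, with MPA, SAT1, SRM, KPNA4, IPO7, SMAD9, BMP7 and SOSTDC1 ended (limma adjusted p 0.0737 to 0.196).

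In the netrin group, 22 of 27 listed genes had a named probe set, UNC5B among them. Of the 21 other genes, 0 rose and 1 fell with MPA, with a median change of -0.02 beside -0.003 over all named probe sets. DAPK1, a death-associated kinase known to act downstream of UNC5B, fell by 0.48 ± 0.066 with MPA (limma adjusted p = 2.94e-04). Its difference with PROG was -0.26 ± 0.066 (limma adjusted p = 0.0493), and leaving out vehicle 1, vehicle 3 or any PROG array ended this DAPK1 call (limma adjusted p 0.0589 to 0.191). The ligand NTN4 was well above the array medians (8.15 in vehicle) and stood at 0.06 ± 0.044 with MPA, and the receptor NEO1 at 0.14 ± 0.043 (limma adjusted p = 0.0858). The ligand NTN1 was at 4.21 in vehicle and stood at 0.12 ± 0.095. Of the other UNC5 receptors, UNC5A was at 4.93 in vehicle and stood at 0.02 ± 0.072 with MPA, while UNC5C (2.95) and UNC5D (3.32) were under the array medians, as was the receptor DCC (3.01).

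In the group of ATP13A ATPases and polyamine genes, 24 of 31 listed genes had a named probe set, ATP13A4 among them. Of the 23 others, 2 rose and 0 fell with MPA, with a median change of -0.047. They were SAT1, which acetylates polyamines for breakdown or export (0.20 ± 0.042, limma adjusted p = 0.00913), and SRM, the spermidine synthase (0.17 ± 0.043, limma adjusted p = 0.0280). Leaving out vehicle 1, vehicle 3, MPA 1 or MPA 3 ended the SRM call (limma adjusted p 0.0676 to 0.119). ATP13A1, ATP13A2 and ATP13A3 stood at 0.01 ± 0.040, 0.02 ± 0.043 and -0.10 ± 0.042 with MPA, none of which passed. ODC1, which makes putrescine, stood at -0.13 ± 0.057 (limma adjusted p = 0.248). With PROG and DHT limma's fit called 0 of the 23 (4 and 3 at an unadjusted p under 0.05).

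In the group of RAN and nuclear transport factors, 33 of 38 listed genes had a named probe set, RANBP3L among them. RAN itself, RCC1, XPO1 and KPNA2 had none, so they were not seen here. Of the 32 others, 0 rose and 2 fell with MPA, with a median change of -0.023. They were the importin KPNA4 (-0.20 ± 0.051, limma adjusted p = 0.0280) and IPO7 (-0.14 ± 0.037, limma adjusted p = 0.0379). Leaving out vehicle 1, vehicle 2, MPA 1 or MPA 3 ended the KPNA4 call (limma adjusted p 0.0866 to 0.113). For IPO7 this held for each of the 6 arrays but MPA 2 (limma adjusted p 0.0840 to 0.134), and for quantile normalization (limma adjusted p = 0.0581). RANBP3, the closest relative of RANBP3L, was at 8.21 in vehicle and stood at -0.03 ± 0.050 with MPA and -0.04 ± 0.050 with DHT. With PROG and DHT 0 of the 32 were called by limma (2 and 1 at an unadjusted p under 0.05).

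In the BMP and SMAD group, 22 of 33 listed genes had a named probe set. The target genes ID1, ID2, ID3 and ID4 and the receptors BMPR1A, BMPR1B and BMPR2 had none, so they were not seen here. Of the 22 genes, 1 rose and 4 fell with MPA, with a median change of 0.015. The ligand BMP4 fell by 0.70 ± 0.054 with MPA (limma adjusted p = 9.15e-07) and by 0.32 ± 0.054 with PROG (limma adjusted p = 0.00338). It stood at -0.24 ± 0.054 with DHT and -0.22 ± 0.054 with DEX, which did not pass (limma adjusted p = 0.0552 and 0.0783). Its level was 4.73 in vehicle and 4.03 with MPA, not far above the array medians. The difference between MPA and PROG for BMP4 was -0.38 ± 0.054 (limma adjusted p = 0.00743), which was lost when PROG 1 was left out (limma adjusted p = 0.0522). BAMBI, a decoy receptor, fell by 0.63 ± 0.053 with MPA (limma adjusted p = 1.96e-06), by 0.39 ± 0.053 with PROG (limma adjusted p = 5.07e-04) and by 0.29 ± 0.053 with DHT (limma adjusted p = 0.0180). Leaving out vehicle 2, DHT 1 or DHT 2 ended the DHT call of BAMBI (limma adjusted p 0.0699 to 0.0898).

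The ligand BMP7 also fell with MPA, by 0.35 ± 0.077 (limma adjusted p = 0.0134). SOSTDC1, a secreted BMP and WNT antagonist, fell by 0.32 ± 0.073 with MPA (limma adjusted p = 0.0156) and by 0.47 ± 0.073 with DHT (limma adjusted p = 0.00546). Leaving out vehicle 2, vehicle 3 or MPA 1 ended both MPA calls (limma adjusted p 0.0609 to 0.0767). Of the SMAD genes, SMAD1 and SMAD5 stood at 0.03 ± 0.055 and 0.02 ± 0.076 with MPA. SMAD9 was called with MPA (0.18 ± 0.051, limma adjusted p = 0.0491), and each array left out in turn ended the SMAD9 call (limma adjusted p 0.0630 to 0.149).

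Of a list of 7 steroid receptor and membrane-associated genes, 3 were analysed here, and PGR is the 1 among them that encodes a receptor for a compound of the study. PGR, the progesterone receptor gene, was at 8.30 in vehicle and fell with MPA and PROG alike, by 0.64 ± 0.056 and 0.58 ± 0.056 (limma adjusted p = 3.35e-06 and 1.71e-05). MPA minus PROG for PGR was -0.06 ± 0.056 (limma adjusted p = 0.845, interval -0.18 to 0.06). ESR1, the estrogen receptor gene, fell by 0.77 ± 0.065 and 0.52 ± 0.065 (limma adjusted p = 2.10e-06 and 1.80e-04). With DHT, ESR1 stood at -0.30 ± 0.065 (limma adjusted p = 0.0486), a call lost with each of the 6 arrays left out in turn (limma adjusted p 0.0517 to 0.175). PGRMC2, a membrane-associated heme-binding protein, rose by 0.29 ± 0.046 with MPA (limma adjusted p = 0.00111) and stood at 0.18 ± 0.046 with PROG (limma adjusted p = 0.0627). The genes for the androgen and glucocorticoid receptors were not analysed here.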

How the data were processed

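Total RNA of ZR-75-1 cells was amplified, labelled with biotin and hybridised to Affymetrix arrays, per the labels' protocols. The authors deposited log2 values, 1 column per array, for 34878 probe sets; per the submitters' processing notes the tools were Partek and RMA, with settings not given in the sources used here. Such processing brings arrays to a like distribution and can compress changes of dim probe sets. Array medians were 3.69 to 3.73, and the number of arrays (3 per group) limits the precision.

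The platform annotation pairs 14841 probe sets with 1 symbol, 0 with several and leaves 20037 unnamed here; older symbols were replaced through RefSeq, which also gave the gene order. Groups and replicate numbers came from the sample titles. limma 3.58.1 in R 4.3.3 fitted 5 group means to the values as deposited (lmFit, eBayes; 10 residual and 3.81 prior degrees of freedom), 2-sided, with Benjamini-Hochberg adjustment per contrast and a threshold of 0.05. The fit was tested on simulated data. Of several probe sets of a list gene, the one with the highest mean was used.

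The members and lists were chosen with earlier results of these data known. Genes named are the members, called list genes (up to 4 per list and contrast), receptor genes, 3 measured neighbours per side, the 5 most correlated genes and those next in rank. Further paralogues, ligands and receptors (NTN1, NTN4, NEO1, DCC, UNC5A, UNC5C, UNC5D, ATP13A1 to ATP13A3, ODC1, RANBP3, SMAD1, SMAD5) and the antisense gene were named after their values were seen. Alternatives were another filter, set of probe sets, prior, normalization or set of arrays, and a replicate block.

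Over all named probe sets, equal replicate numbers did not pair arrays. Deviations from group means correlated at -0.054 to 0.067 between arrays of 1 number. In RANBP3L, replicate 2 was highest and replicate 3 lowest with MPA, PROG and DHT, but not with DEX or in vehicle. In ATP13A4, replicate 2 was highest in every group but DEX. With a replicate block the standard error was 0.079 rather than 0.097 for RANBP3L, and 0.082 rather than 0.080 for UNC5B. A pairing in single genes was not tested.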

Additional observations from a re-analysis of the deposited data

How the results depend on the processing

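For the 3 genes, no alternative moved a tested difference across the threshold. RANBP3L with DHT stayed called (1.18 to 1.31 with 1 array left out, limma adjusted p 5.89e-05 to 1.73e-04; limma adjusted p 1.67e-06 to 0.00147 under the others), and so did DHT against DEX (limma adjusted p 9.35e-05 to 0.00828). RANBP3L with DEX stayed uncalled, at a limma adjusted p of 0.0509 to 0.294. MPA minus PROG ran from 1.31 to 1.49 for RANBP3L, 0.75 to 0.95 for UNC5B and 0.85 to 1.01 for ATP13A4 with 1 array left out. The ATP13A4 difference near 0 turned sign without DHT 2 (DHT against vehicle, -0.012 to 0.113 over arrays left out), without PROG 2 (PROG against vehicle, -0.012 to 0.143) and, for PROG minus DHT, without PROG 3 (0.077) or DHT 2 (0.075; range -0.078 to 0.077).

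Counts moved more, and the cause was not tested. With only the 2 groups of a contrast in the fit, which leaves fewer arrays, called probe sets fell to 526 (MPA), 255 (PROG), 54 (DHT) and 44 (DEX) against vehicle, 7 (MPA minus PROG) and 39 (DHT minus DEX), and list genes to 6 with MPA, 1 with DHT and 0 for MPA minus PROG. With an intensity trend the probe sets were 220 (DHT), 71 (MPA minus PROG) and 166 (DHT minus DEX), and list genes 2 with DEX and 2 for MPA minus PROG. Without dim probe sets they were 206 with DHT, with 5 list genes with DHT and 3 with DEX. With 1 array left out, probe sets ranged over 674 to 855 (MPA), 257 to 336 (PROG), 66 to 132 (DHT), 78 to 123 (DEX), 17 to 38 (MPA minus PROG) and 62 to 135 (DHT minus DEX), and list genes over 8 to 13 (MPA), 4 to 5 (PROG), 1 to 3 (DHT), 0 to 1 (DEX), 0 to 2 (MPA minus PROG) and 0 to 2 (DHT minus DEX).

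With the replicate number as a block, RANBP3L differed by 1.26 with DHT (limma adjusted p = 9.86e-06) and 0.36 with DEX (limma adjusted p = 0.0579). With the block 829 probe sets were called with MPA (880 without it), 381 with PROG (419), 100 with DHT (132) and 147 with DEX (164), and 6 of the 15 arrays correlated best with an array of their own number. Of the list genes, 11 were called with MPA (13 without it), and the calls of IPO7 (limma adjusted p = 0.0537) and SMAD9 (0.0822) with MPA, DAPK1 with PROG (0.0874) and ESR1 with DHT (0.0581) were not made with the block.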

Other observations

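The MPA change can be set beside the sum of the changes with PROG, DHT and DEX, a comparison chosen after the values were seen and given as a description. The genes were chosen as higher with MPA than with PROG, which favours an MPA change above the sum. No excess over the sum is therefore read from these values. For UNC5B the sum was 1.18 and the MPA change 1.71, a difference of 0.52 ± 0.160. For ATP13A4 the sum was 0.08 and the MPA change 1.00, a difference of 0.92 ± 0.182. For RANBP3L the sum was 2.56 and the MPA change 2.36, a difference of -0.20 ± 0.193. Its vehicle level may be background, so its changes may be too low and this difference shares that limit.

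Among the 20037 probe sets without a gene name here, 1 had an MPA minus PROG difference of at least 0.83, the smallest of the 3 genes, and stood at 0.91. Among the 14841 named ones, 4 did. Next to the 3 genes, the widest gap between the lowest MPA array and the highest of the 12 other arrays was 0.40 for TIPARP, followed by FMO5, a flavin monooxygenase (0.37), STEAP4 (0.37), SGPP2 (0.36) and EAF2 (0.35).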
